A study of Mus musculus with 26 samples.

Results

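Genes of cholesterol and fatty acid synthesis, with their regulators and a few genes of sterol transport and lipid modification, were followed in mouse neural stem cells that carried MYB, MYBQKI or QKI constructs. The 34 genes are a list of known pathway members, chosen with earlier results of these data known. Of these, 33 were measured among 23102 genes, through 512 of 269751 probe sets that named 1 member alone. Acat2 is not analysed here because no probe set named it alone. The number of probe sets per measured member ran between 2 (Idi1) and 40 (Fasn).

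The cells came from C57BL6 wild-type mouse embryos at E14.5, and lentivirus brought a transgene into all of them. In the pool set of 18 Affymetrix arrays, cells expressed MYBtr, MYBQKI5, MYBQKI6 or QKItr (3 arrays each, pools 1 to 3) or the control protein eGFP (6 arrays, 2 for each pool, averaged within the pool). In the suppression set of 8 arrays, every sample expressed MYBQKI6, with Qk suppressed in 5 and LacZ suppressed in 3. MYBQKI is the fusion of the transcription factor MYB with the RNA-binding protein QKI, found in angiocentric glioma, and Qk is the mouse QKI gene. The labels do not say what tr means, which promoter drove the constructs, what the pools were, how suppression was done, or whether replicates were separate cultures. The p-values therefore rest on the spread among the arrayed samples, which may be technical.

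Cells make cholesterol from acetyl-CoA through the mevalonate arm and then the squalene and sterol arm, and they make fatty acids from the same acetyl-CoA. Most of the enzymes are transcribed under the SREBP factors, encoded by Srebf1 and Srebf2. The escort protein Scap carries these factors out of the endoplasmic reticulum when sterols are low, and Insig1 holds them back when sterols are plentiful. Liver X receptors respond to oxysterols and raise sterol exporters such as Abca1. In mice, Qki has been described as a partner of Srebp2 in cholesterol synthesis of oligodendrocytes.

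Myb followed the construct labels, and Qk did not separate the suppression groups. Myb signals were 6.80 to 7.89 (log2) in the 9 columns with a MYB construct, against 4.60 to 5.34 with QKItr and 4.30 to 5.18 with eGFP. Qk signals in Qk-suppressed samples were 9.35, 9.30, 9.46, 9.70 and 9.59, against 9.68, 9.70 and 9.74 in LacZ-suppressed samples, so the groups overlapped. The difference was -0.24 (95% interval -0.56 to 0.08) and was not called, with an adjusted p of 0.73, and "Qk-suppressed" below is the label. In the pool set, Qk differed from eGFP by 0.25 with QKItr (95% interval -0.116 to 0.615). It differed by -0.11 with MYBQKI6 (95% interval -0.476 to 0.255) and by -0.10 with MYBQKI5, and none of these was called. Whether the Qk probe sets also read the QKItr and MYBQKI constructs was not tested. Percentiles were taken for some markers only. Neural stem cell markers Nes, Sox2, Vim and Fabp7 stood between the 94.9th and 99.9th percentile of genes in the pool set. Astrocyte and oligodendrocyte precursor markers were not ranked in this way. With eGFP their list medians were 6.72 to 6.79 and 6.14 to 6.83, against 8.27 to 8.40 for the list of 10 stem cell markers. The ranked markers of other cells stood lower than the 4 named. Microglial Aif1, Csf1r and Cx3cr1 stood at the 22.7th, 35th and 52.3rd, endothelial Cdh5 and Pecam1 at the 34.2nd and 48.2nd, myelin Mog at the 38.8th, and neuronal Snap25 and Rbfox3 at the 39.8th and 66.8th. Within the list, Scd2 reached the 99.9th percentile, Fads1 the 99.6th and Hmgcs1 the 98.9th, while Abcg1 at the 48.1st was the only member under the median gene of the pool set. Probe sets of different genes have different brightness, so these percentiles are a rough ranking. The tests below compare 1 gene at a time between samples.

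Lpin1 was the member that fell with the MYB constructs. It encodes lipin 1, the phosphatidate phosphatase that makes diacylglycerol for glycerolipids and also acts in the nucleus as a regulator of transcription. Lpin1 signals in pools 1, 2 and 3 were 8.39, 8.25 and 8.88 with MYBtr, 8.68, 8.82 and 8.73 with MYBQKI5, and 8.59, 8.40 and 9.02 with MYBQKI6. They were 9.59, 9.69 and 9.86 with QKItr, and 9.50, 9.49 and 9.69 with eGFP. All 9 values with a MYB construct lay below all 6 values with QKItr or eGFP.

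Against eGFP, Lpin1 fell by 1.05 on the log2 scale with MYBtr (SE 0.179, adjusted p = 0.013) and by 0.89 with MYBQKI6 (SE 0.179, adjusted p = 0.037). With MYBQKI5 the difference was -0.82 (SE 0.179), called only when the pool number was a block (adjusted p = 0.092 without it and 0.0059 with it). That blocked call was lost without pool 1 (adjusted p = 0.1), without pool 2 (adjusted p = 0.06) and without pool 3 (adjusted p = 0.05 after rounding). A gene was called where its limma p, adjusted by Benjamini-Hochberg over all 23102 genes, was under 0.05. Lpin1 was the single member called with MYBtr and with MYBQKI6, and no member was called with MYBQKI5, where 2 members had an unadjusted p under 0.05. In those 3 comparisons 1.37%, 0.762% and 0.199% of all genes were called. With the pool block, 2, 2 and 1 members were called, beside 5.99%, 4.43% and 2.64% of all genes. The calls of single constructs were lost when some single pool columns were left out, with adjusted p up to 0.088 for MYBtr and up to 0.24 for MYBQKI6.

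Taken as 1 group of 9 columns, the 3 MYB constructs had a Lpin1 difference of -0.92 from eGFP (SE 0.146, 95% interval -1.23 to -0.61, a ratio of 0.528, adjusted p = 0.0056). The difference was -0.94 in pool 1, -1.005 in pool 2 and -0.81 in pool 3. It was the only member called of 33, beside 2% of all genes. With the pool block, 2 members were called (Lpin1 lower, adjusted p = 0.00021, and Acss2 higher), beside 7.08% of all genes. All 22 probe sets of Lpin1 were lower, by 0.29 to 1.34, and 3 of them were called without the pool block and 16 with it, where 0.356% and 1.1% of all probe sets were. When the brightest probe set alone stood for each gene, Lpin1 had a difference of -0.87 and was not called (adjusted p = 0.05 after rounding).

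**Figure D1:**
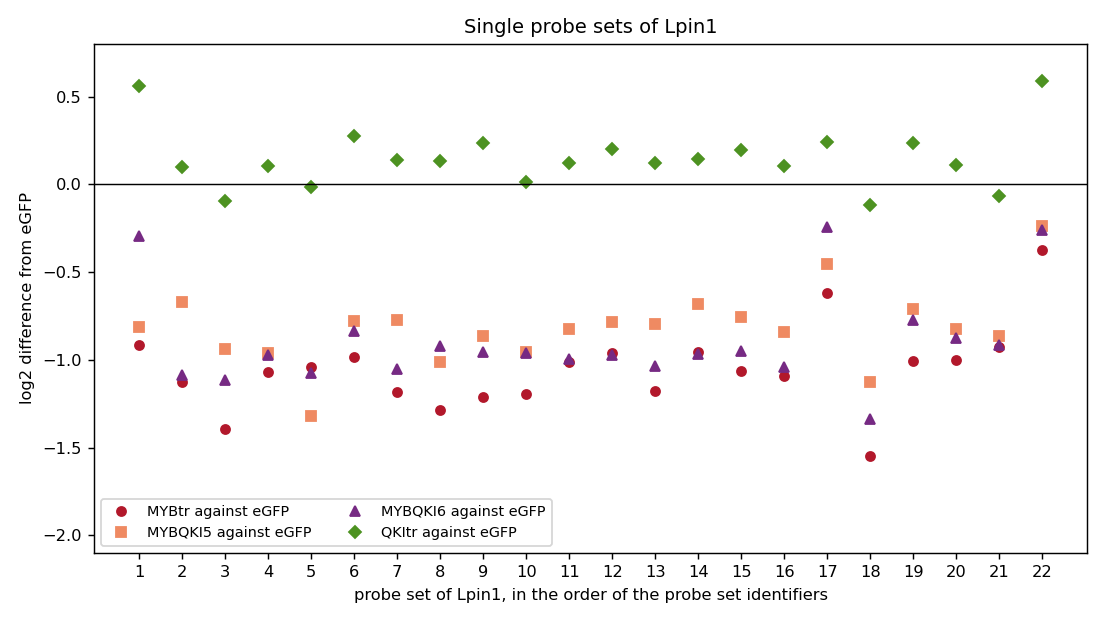
Log2 difference from eGFP (y axis) for each of the 22 probe sets of Lpin1 (x axis), without error bars, for MYBtr, MYBQKI5, MYBQKI6 and QKItr. All 22 probe sets lie below 0 for each of the 3 MYB constructs, and 18 of the 22 lie above 0 for QKItr.

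Cell type markers moved in both directions beside Lpin1. Of 10 oligodendrocyte precursor markers, 3 were called lower with the 3 MYB constructs together (6 lower and 1 higher with the pool block). Of 10 astrocyte markers 1 was called lower (4 with the block). For these and the other marker lists, the share of all genes called was 2% without the block and 7.08% with it. Pdgfra was the precursor marker called higher with the block, at 0.67 (adjusted p = 0.031). Gfap had the largest astrocyte difference, -1.26, and Cspg4 the largest precursor difference, -1.30. The median log2 level over the precursor list was 5.43 to 6.10 with MYBtr, 5.77 to 6.09 with MYBQKI5 and 5.46 to 6.04 with MYBQKI6, against 6.14 to 6.83 with eGFP. The astrocyte list ran at 5.72 to 6.38, 5.53 to 6.57 and 5.78 to 6.63 in those constructs, against 6.72 to 6.79 with eGFP. The neural stem cell list ran at 7.32 to 7.85, 7.54 to 7.76 and 7.37 to 8.07, against 8.27 to 8.40 with eGFP.

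Of 10 stem cell markers 1 was called lower, Nes at -1.04 (adjusted p = 0.017), and 1 higher, Vim at 0.46 (adjusted p = 0.048), with Hes1 also lower with the block. Of 9 markers of myelinating oligodendrocytes 1 was called, Cnp, which was higher by 0.87 (adjusted p = 0.0057). Without the block no marker was called among 10 each for neurons, microglia and immune cells, and vascular cells and fibroblasts, where 1, 1 and 0 had an unadjusted p under 0.05. With the block Gad1 (neuron, -0.61) and Cd68 (microglia, -1.06) were called lower. In such bulk samples fewer cells of a type and less RNA per cell cannot be told apart, and the part of cell composition in the Lpin1 difference was not tested.

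The RefSeq promoter table (GRCm38.p6) held Lpin1 and Acss2, the members called against eGFP. Their 250 bases upstream of the annotated start are printed with chosen motifs marked. The Lpin1 run lies on the minus strand at chr12:16610967-16611216, with capitals marking both matches to the MYB element (CAACNG or TAACNG, on either strand). The Acss2 run lies on the plus strand at chr2:155517793-155518042, with capitals marking its NF-Y box (CCAAT, here on the opposite strand). Its Sp1 boxes (GGGCGG) are not marked. Acss2 also had a MYB element, at 31 to 36 bases after the start and so outside the printed run.
Lpin1: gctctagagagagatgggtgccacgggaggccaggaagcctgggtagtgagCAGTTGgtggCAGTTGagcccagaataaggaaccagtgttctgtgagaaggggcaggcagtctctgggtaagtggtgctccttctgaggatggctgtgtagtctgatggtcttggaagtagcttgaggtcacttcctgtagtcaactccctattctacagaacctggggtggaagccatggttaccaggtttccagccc
Acss2: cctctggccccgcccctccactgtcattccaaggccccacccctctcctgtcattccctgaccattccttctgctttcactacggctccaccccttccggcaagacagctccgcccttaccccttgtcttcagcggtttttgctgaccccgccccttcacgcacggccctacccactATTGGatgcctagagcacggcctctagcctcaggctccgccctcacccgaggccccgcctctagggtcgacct
The MYB element occurred in 40.6% of 32 member promoters and in 49.7% of all 32851 promoters (250 bases before and 50 after the start). A match is a description of letters, not a binding site.

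Acss2 was the member that rose with the MYB constructs, in the fit with the pool block only. It encodes the acetyl-CoA synthetase of cytosol and nucleus, which makes acetyl-CoA from acetate. Acss2 signals in pools 1, 2 and 3 were 7.13, 7.16 and 7.27 with MYBtr, 6.49, 6.82 and 7.41 with MYBQKI5, and 6.75, 7.03 and 7.21 with MYBQKI6. They were 6.26, 6.11 and 7.11 with QKItr, and 6.22, 6.11 and 6.80 with eGFP. The groups overlapped over pools for MYBQKI5 and MYBQKI6, but within each pool all 3 MYB constructs lay above eGFP. The difference of the 3 MYB constructs from eGFP was 0.65 (SE 0.224 and adjusted p = 0.22 without the pool block, SE 0.132 and adjusted p = 0.0071 with it). With the pool block MYBtr gave 0.81 (adjusted p = 0.0089) and MYBQKI6 gave 0.62 (adjusted p = 0.046), while MYBQKI5 gave 0.53 and was not called (adjusted p = 0.12). Of 20 probe sets 18 were higher, and 1 was called with the block. The blocked call for the 3 constructs together was lost without pool 1 or without pool 2.

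**Figure D2:**
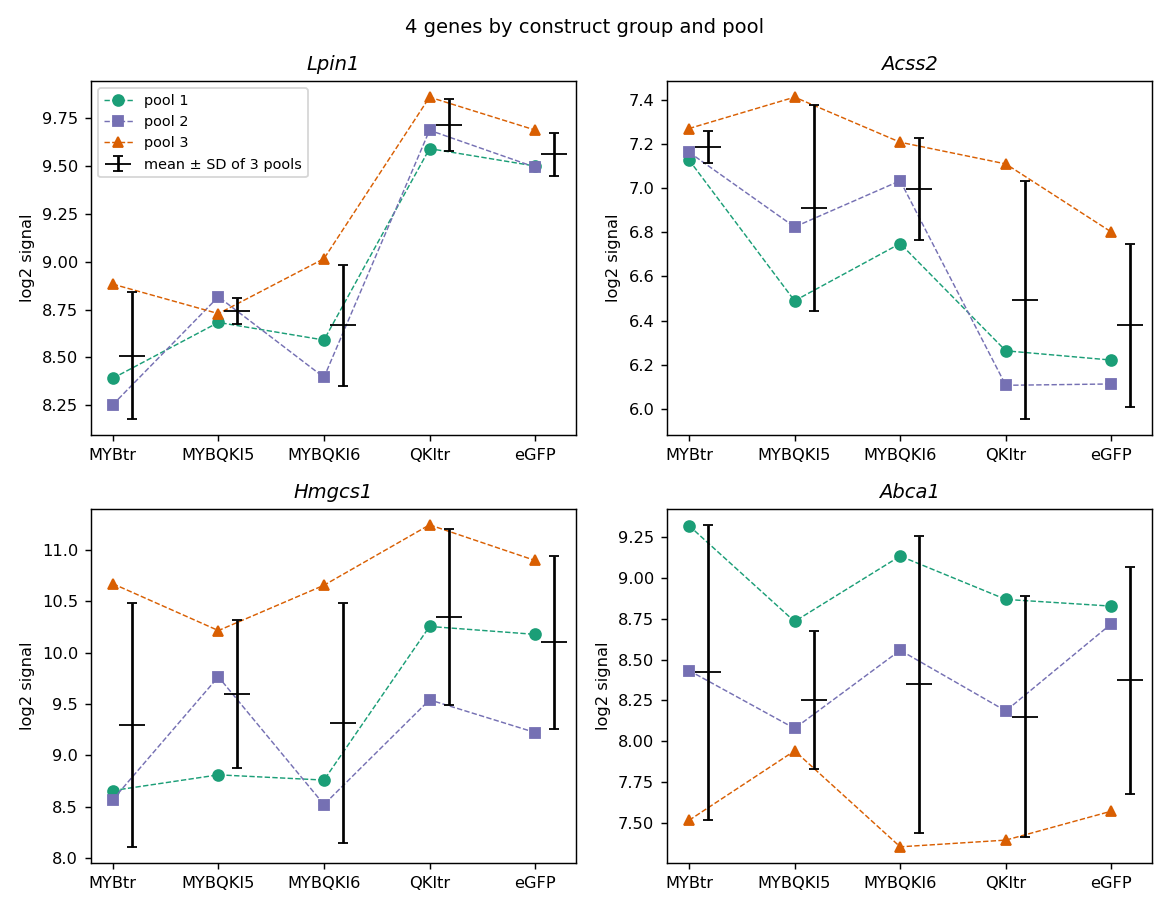
Log2 signal (y axis) of Lpin1, Acss2, Hmgcs1 and Abca1 by construct group (x axis), with a marker for each pool, lines that join the same pool, and black bars for the mean ± SD of 3 pools. Lpin1 separates the MYB constructs from QKItr and eGFP, whereas pool 3 is highest for Acss2 and Hmgcs1 and lowest for Abca1 in all 5 groups.

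The enzymes of cholesterol synthesis were not called in any comparison with eGFP, and their point estimates lay mostly below 0. Over the 33 members the median difference of the 3 MYB constructs from eGFP was -0.15 (8 higher, 25 lower), against -0.01 over all genes. The 6 measured genes of the mevalonate arm all had negative differences, between -0.70 for Hmgcs1, the HMG-CoA synthase, and -0.06 for Idi1, the isopentenyl diphosphate isomerase. Between them lay Fdps (farnesyl diphosphate synthase) at -0.37, Mvd (mevalonate diphosphate decarboxylase) at -0.29, Pmvk (phosphomevalonate kinase) at -0.25 and Mvk (mevalonate kinase) at -0.07. The 95% interval for Hmgcs1 was -1.88 to 0.48 without the pool block, a fit that leaves the differences between pools in the spread. By pool, its difference from eGFP was -1.435, -0.271 and -0.383 in pools 1, 2 and 3. Of the single constructs, only MYBQKI5 in pool 2 lay above eGFP, by 0.542. With the block the adjusted p was 0.13, and that interval is drawn in blue in the plot of member differences by role. The lack of a call does not show that the levels were equal.

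In the squalene and sterol arm 8 of 10 genes had negative differences, and none was called. Fdft1, the squalene synthase, stood at -0.32, Sqle, the squalene epoxidase, at -0.20, and Lss, the lanosterol synthase, at -0.40. Cyp51, the lanosterol demethylase, stood at -0.36, Sc5d, the lathosterol desaturase, at -0.37 and Dhcr7, the 7-dehydrocholesterol reductase, at -0.40. The lowest adjusted p in the arm was 0.094, for Sc5d with the pool block. Tm7sf2 (sterol C14 reductase) stood at -0.02 and Ebp (sterol isomerase) at -0.12, while Nsdhl and Hsd17b7, both of which act in removal of the C4 methyl groups, stood at 0.22 and 0.03.

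The regulators and transport genes showed no call against eGFP. Srebf2, the SREBP gene tied most to cholesterol synthesis, had a difference of -0.35 (adjusted p = 0.92 without and 0.12 with the pool block), and Srebf1 had -0.15. Scap stood at 0.31 and Insig1 at 0.19. Stard4 (a sterol carrier of the cytosol) stood at -0.18, Abca1 (sterol export) at -0.03 and Abcg1 (sterol export) at -0.09.

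In fatty acid building, Acly (ATP citrate lyase) stood at 0.03, Acaca (acetyl-CoA carboxylase) at -0.20 and Fasn (fatty acid synthase) at -0.25, none of them called. Among the genes that desaturate or lengthen fatty acids, Scd1 stood at 0.00, Scd2 at -0.22, Elovl6 at 0.18, Fads1 at 0.26 and Fads2 at -0.03, again without a call. Scd1 and Scd2 are close paralogs, and how far their probe sets tell them apart was not tested. Counted by pool, 14 of 33 members were lower than eGFP in all 3 pools and 2 (Scap and Acss2) were higher in all 3, against 20.7% and 18.5% of all genes. The median member difference was -0.36 in pool 1, 0.01 in pool 2 and -0.15 in pool 3, so the median lay below 0 in pools 1 and 3 and not in pool 2.

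**Figure D3:**
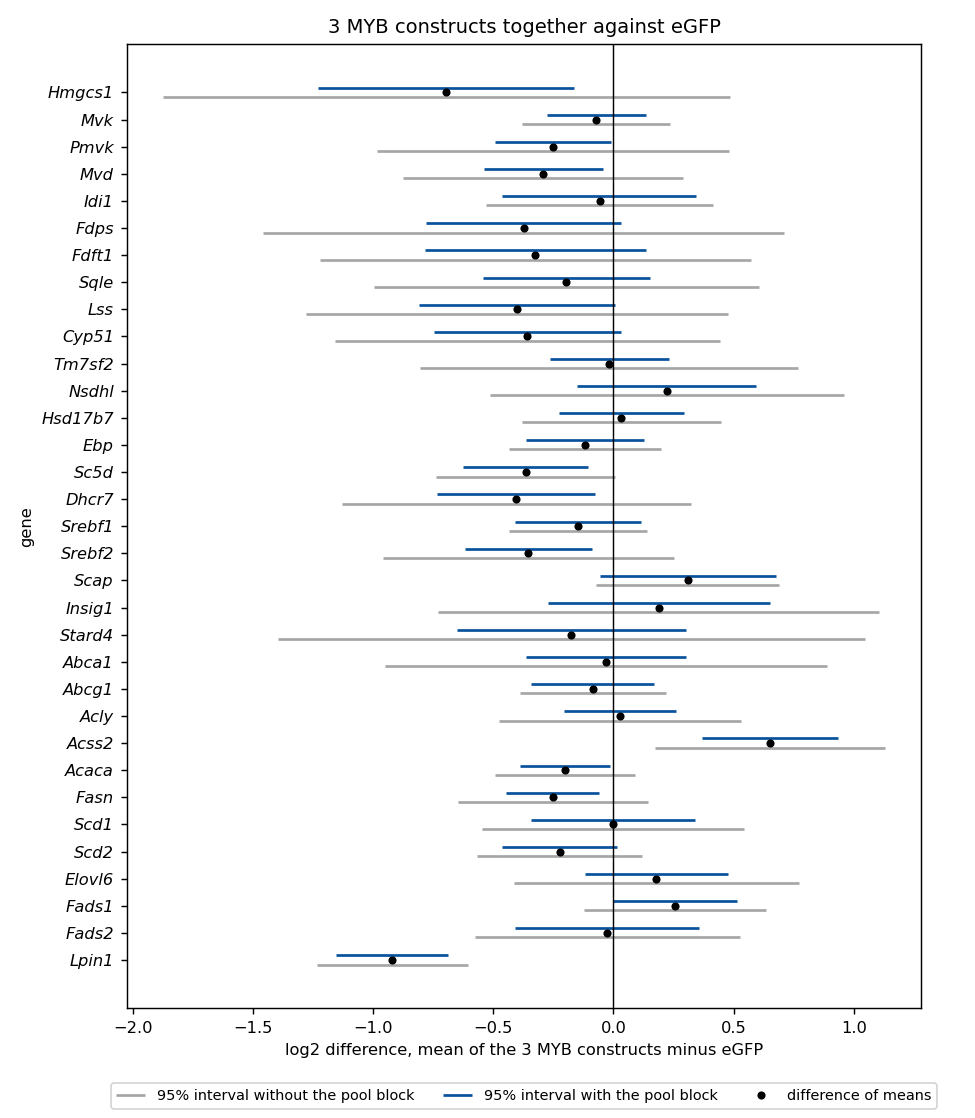
Log2 difference of the 3 MYB constructs together from eGFP (x axis) for the 33 measured members (y axis, ordered by role). Points are differences of means, grey lines 95% intervals without the pool block and blue lines 95% intervals with it. Lpin1 (-0.92) and Acss2 (0.65) are the only members called in the fit with the block.

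QKItr against eGFP gave no called member, where 0% of all genes was called with or without the pool block. At an unadjusted p under 0.05 there were also 0 members in either fit. A lack of calls with 3 pools does not show that the levels were equal. Qk itself was not called here either, so these signals do not show that the QKItr construct was expressed. The median member difference was 0.08 (22 higher, 11 lower), and the extremes were Insig1 at 0.43 (95% interval -0.70 to 1.55) and Abca1 at -0.22. Lpin1 differed by 0.15 (95% interval -0.23 to 0.54). In all 3 pools 10 members were higher than eGFP and 2 were lower, against 13.9% and 17.5% of all genes.

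The 3 MYB constructs were also set against QKItr in place of eGFP, and more members were called only with the pool block. This comparison was added after the data had been seen and shares the MYB columns with the one above. Lpin1 differed by -1.07 (SE 0.146, adjusted p = 0.0016, 6.8e-05 with the pool block). It was the single member called without the block, where 2.97% of all genes were called. With the block 7 members were called (1 higher, 6 lower), where 10.4% of all genes were called. Acss2 was the higher one, at 0.54 (adjusted p = 0.018).

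The lower ones with the block, beside Lpin1, held 3 mevalonate genes, Hmgcs1 at -0.94 (adjusted p = 0.026), Mvd at -0.46 (adjusted p = 0.019) and Pmvk at -0.38 (adjusted p = 0.043). Srebf2 stood at -0.50 (adjusted p = 0.017) and Fasn at -0.33 (adjusted p = 0.029). Hmgcs1 signals in pools 1, 2 and 3 were 8.66, 8.57 and 10.67 with MYBtr, 8.81, 9.77 and 10.21 with MYBQKI5, and 8.76, 8.52 and 10.66 with MYBQKI6, against 10.26, 9.54 and 11.24 with QKItr. They were 10.18, 9.22 and 10.90 with eGFP. Srebf2 signals were 8.32, 8.42 and 9.38 with MYBtr, 8.49, 8.99 and 9.49 with MYBQKI5, and 8.45, 8.52 and 9.41 with MYBQKI6, against 9.20, 9.08 and 9.71 with QKItr. Within each pool the 3 MYB values of Srebf2 lay below the QKItr value, and for Hmgcs1 they did so in pools 1 and 3 only. The count of 7 became 1 without pool 1 (5.69% of all genes called), 4 without pool 2 (2.45%) and 3 without pool 3 (7.7%), and Lpin1 was called in all of these.

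The 3 MYB constructs were not told apart by these genes. No member was called for MYBQKI5 against MYBtr, MYBQKI6 against MYBtr or MYBQKI6 against MYBQKI5, where 0% of all genes was called in each. At an unadjusted p under 0.05 there were 0 members in each pair without the pool block and 1 with it. Median member differences were 0.06, 0.00 and -0.04 in that order, and the widest single difference was -0.47, for MYBQKI6 against MYBtr.

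Most members differed between the pools in the same way in every construct group, a description made after the data had been seen. The pool term, a moderated F test beside the 5 group means, was called for 27 of 33 members, where 34% of all genes were called. Pool 3 had the highest signal in all 5 construct groups for 24 of 33 members, against 5.27% of all genes. Pool 1 did so for 1 member (10.2% of all genes) and pool 2 for none (3.23%). The members without a called pool term were Idi1, Ebp, Srebf1, Scap, Abcg1 and Lpin1.

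By role, pool 3 was highest in all 5 groups for 5 of 6 mevalonate genes, 8 of 10 squalene and sterol genes, 2 of 4 regulators (Srebf2 and Insig1), 1 of 3 transport genes (Stard4), 4 of 4 genes of fatty acid building and 4 of 6 genes of the last group, in which Fads1 and Lpin1 were the exceptions. Pool means of Hmgcs1 were 9.33, 9.12 and 10.74 in pools 1, 2 and 3, those of Fdps 7.07, 6.88 and 8.42, and those of Stard4 5.24, 5.39 and 6.93. Stard4 had the widest pool range, 1.70, and Insig1 had one of 1.27. Abca1 ran the other way, with pool means of 8.98, 8.40 and 7.56, and pool 1 was highest and pool 3 lowest in all 5 groups. The 2 eGFP arrays of a pool differed by a median of 0.08 to 0.11 over the members.

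**Figure D4:**
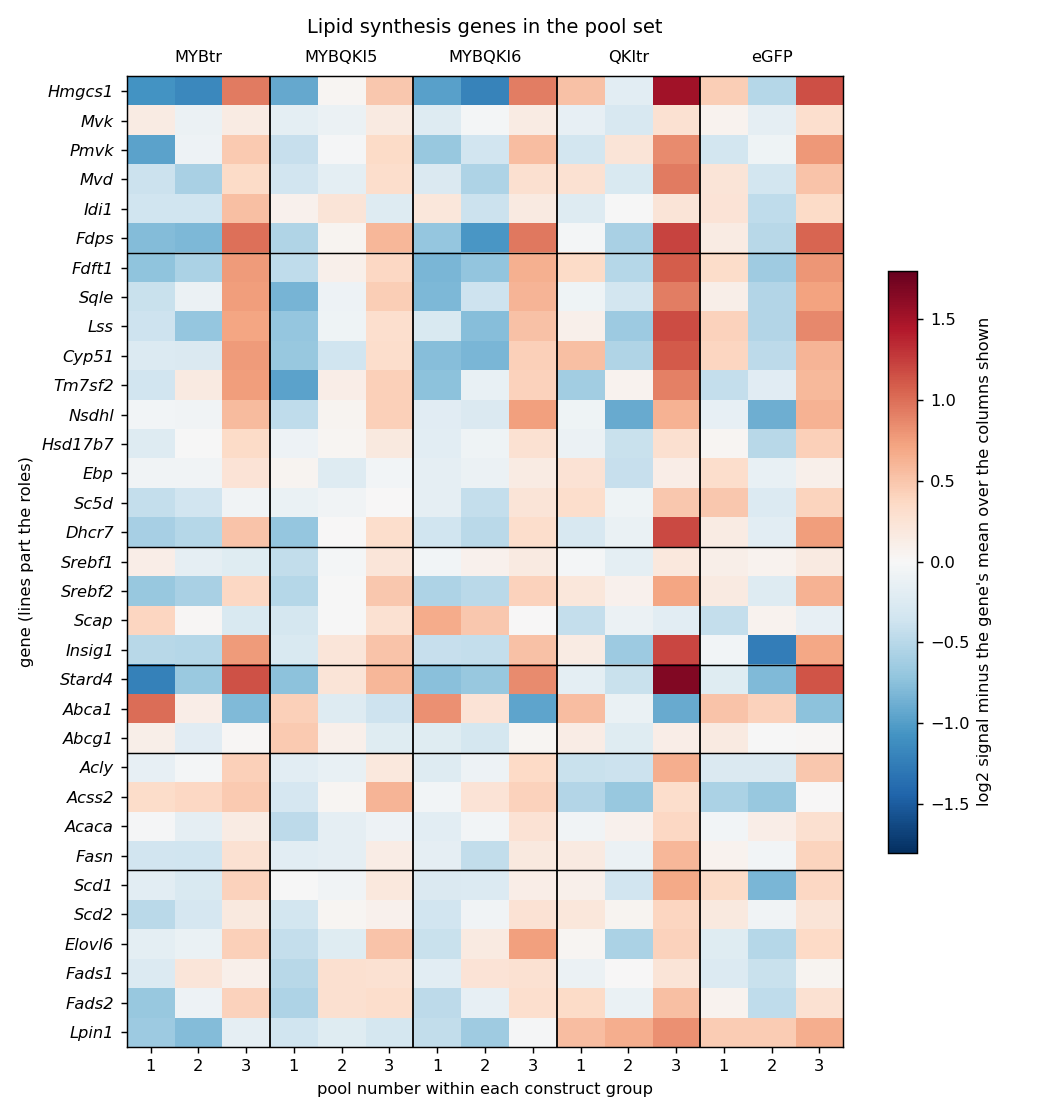
Log2 signal of each measured member minus its own mean over the 15 columns (colour), with genes down the page by role and the 5 construct groups across it, each with pools 1 to 3. The third column of each group is the reddest for 24 of 33 members, Abca1 shows the reverse, and Lpin1 is low in the 9 columns with a MYB construct.

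In other lipid lists pool 3 was highest in all 5 groups for 4 of 24 genes of fatty acid elongation and activation, 3 of 19 of sterol and isoprenoid handling, 2 of 21 of glycerolipid synthesis, and 0 of 12 liver X receptor factors and targets, 0 of 23 of fatty acid oxidation and 0 of 16 of SREBP processing and turnover. Among 10 neural stem cell markers it was so for 1, and among 10 astrocyte markers for 0. What set the pools apart is not in the labels, and its part was not tested.

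The promoters of Hmgcs1 and Insig1, with pool ranges of 1.61 and 1.27, are printed as examples of motif matches. Abca1, with a range of 1.42 the other way, is not printed. Whether motifs and pool ranges are linked was not tested. The Hmgcs1 run lies on the plus strand at chr13:119690101-119690350, with capitals marking a sterol regulatory element (TCACNCCAC) and 3 NF-Y boxes on the opposite strand. The Insig1 run lies on the plus strand at chr5:28071162-28071411, with capitals marking an NF-Y box on the opposite strand and an E-box (CACGTG). Sp1 boxes in both runs and a MYB element of Hmgcs1 (bases -209 to -204) are not marked.
Hmgcs1: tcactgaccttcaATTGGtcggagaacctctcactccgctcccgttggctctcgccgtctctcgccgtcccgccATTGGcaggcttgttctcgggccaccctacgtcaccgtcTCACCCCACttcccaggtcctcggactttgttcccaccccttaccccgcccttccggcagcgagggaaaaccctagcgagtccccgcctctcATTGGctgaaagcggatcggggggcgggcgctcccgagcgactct
Insig1: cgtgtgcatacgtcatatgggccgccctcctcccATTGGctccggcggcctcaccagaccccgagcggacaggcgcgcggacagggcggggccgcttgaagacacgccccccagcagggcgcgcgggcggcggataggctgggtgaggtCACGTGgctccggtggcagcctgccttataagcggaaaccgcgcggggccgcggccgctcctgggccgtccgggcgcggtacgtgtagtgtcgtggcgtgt
The RefSeq table (GRCm38.p6) held 32 promoters of 26 of the 34 genes, and the build of the array is not given in the sources used here. The NF-Y box occurred in 62.5% of these, against 37.4% of all 32851 promoters, the Sp1 box (GGGCGG) in 75% against 35.7%, and the E-box in 21.9% against 7.15%. The sterol regulatory element was found in 3.12% (Hmgcs1 only) against 1.24%, and the liver X receptor element (a direct repeat of AGGTCA) and the classic sterol regulatory element in none. All motifs were searched on both strands, and a missing match says only that these letters are not in the window.

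Suppression of Qk against LacZ, with MYBQKI6 in every sample, gave no called member. None had an unadjusted p under 0.05, and 0.00433% of all genes (1 gene) was called, with or without the second title number as a block. The median member difference was 0.10 (27 higher, 6 lower), against 0.03 over all genes, and without the block it was -0.01 (14 higher, 19 lower). Lpin1 had the largest difference, 0.32 (SE 0.190, 95% interval -0.09 to 0.74), with signals of 7.40, 7.75, 7.68, 8.41 and 8.02 in Qk-suppressed samples 5_2, 6_1, 6_3, 9_1 and 9_3, against 7.74, 7.48 and 7.25 in LacZ-suppressed samples L_1, L_2 and L_3. These groups overlapped. Hmgcs1 differed by 0.01 (95% interval -0.37 to 0.40) and Srebf2 by 0.10 (95% interval -0.20 to 0.39), and the lowest difference was that of Abca1, -0.16.

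Most members varied with the second title number, again a description added after the data had been seen. The term for this number was called for 21 of 33 members, where 6.09% of all genes were called. Both arrays with number 2, Qk-suppressed 5_2 and LacZ-suppressed L_2, lay above the other 6 for 26 of 33 members, against 11.2% of all genes. All arrays of number 1 lay above the others for 1 member (6.71% of all genes) and those of number 3 for none (4.2%). The median difference of the number 2 arrays from the other 6 was 1.00 over the members and -0.02 over all genes.

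Fdps, the largest of these, had 8.80 (5_2) and 8.47 (L_2) in the number 2 arrays, against 6.41 to 6.97 in the other 6, a difference of 1.92. Hmgcs1 had 10.67 and 10.44 against 8.52 to 9.50, a difference of 1.60, and Sqle and Cyp51 followed at 1.58 and 1.56. All 6 mevalonate genes and all 10 squalene and sterol genes had both number 2 arrays on top. Abca1 was the reverse, with 5.22 and 6.07 in 5_2 and L_2 against 6.14 to 7.20 in the other 6, so that L_2 and the next array lay close. Srebf1, Abcg1, Acss2, Scd2, Fads1 and Lpin1 had no such order. In the 6 related lists, number 2 arrays lay on top for 9 of 24 genes of fatty acid elongation and activation and 4 of 21 of glycerolipid synthesis. They did so for 3 of 19 of sterol and isoprenoid handling and 3 of 23 of fatty acid oxidation. The counts were 1 of 16 for SREBP processing and turnover and 0 of 12 for liver X receptor factors and targets, against 11.2% of all genes. Array 5_2 is the only one with first number 5, so within Qk suppression its first and second numbers cannot be told apart.

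**Figure D5:**
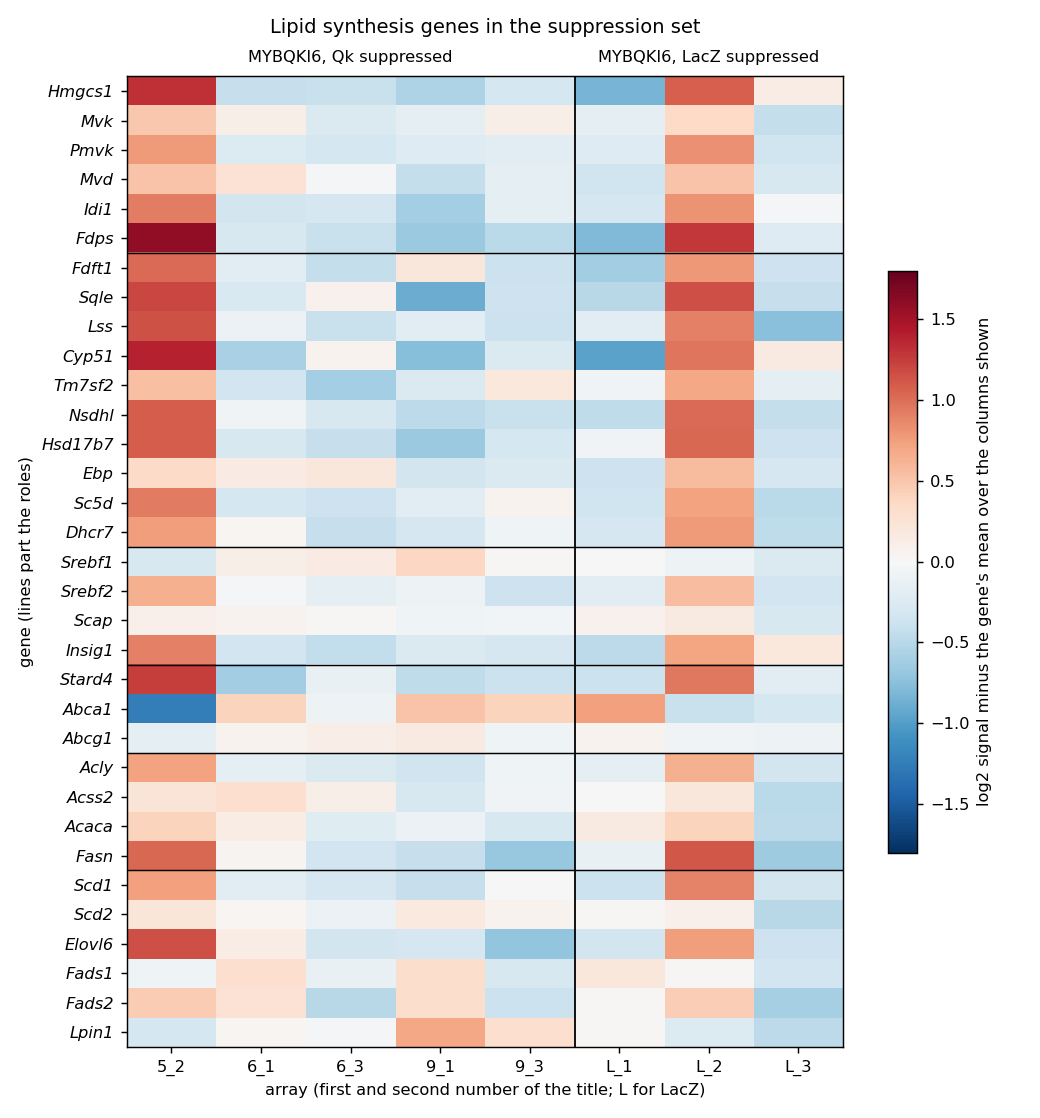
Log2 signal of each measured member minus its own mean over the 8 arrays (colour), with genes down the page by role and the 5 Qk-suppressed arrays left of the 3 LacZ-suppressed arrays. The columns 5_2 and L_2 are the reddest for 26 of 33 members, and Abca1 is lowest in these 2 columns.

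Around the members, 6 further lists of the same pathways were counted for the 3 MYB constructs against eGFP. Of their 115 genes 2 were called without the pool block (1.74%, beside 2% of all genes) and 14 with it (12.2%, beside 7.08%), so the share without the block was near that of all genes. Both genes called without the block were among 12 liver X receptor factors and targets. Mylip, a ubiquitin ligase that degrades lipoprotein receptors and a target of these receptors, rose by 1.41 (SE 0.132, adjusted p = 8.8e-05), and the coactivator gene Ncoa1 fell by 0.76 (SE 0.097, adjusted p = 0.0013). With the block Pltp, the phospholipid transfer protein, was also higher there, at 0.83 (adjusted p = 0.0052). In glycerolipid synthesis 2 of 21 genes were higher and 1 lower with the block. The higher ones were the paralogs of Lpin1, Lpin3 at 1.05 (adjusted p = 0.00046) and Lpin2 at 0.49 (adjusted p = 0.0097), and the lower one was Pcyt1a, which catalyses the slow step of phosphatidylcholine synthesis, at -0.43 (adjusted p = 0.0046).

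In the remaining lists all calls needed the block. In fatty acid elongation and activation 1 of 24 was higher (the elongase Elovl5, 0.51) and 2 lower (the acyl-CoA synthetase Acsbg1, -0.69, and the lipogenic regulator Thrsp, -0.68). In sterol and isoprenoid handling 1 of 19 was higher (the lipoprotein receptor Lrp8, 0.47) and 1 lower (the mitochondrial thiolase Acat1, -0.66). In fatty acid oxidation 1 of 23 was higher (the carnitine palmitoyltransferase Cpt1a, 0.47) and 1 lower (the dehydrogenase Acadm, -0.32), and of 16 genes of SREBP processing and turnover 1 was lower (Sec23a, a coat protein of transport vesicles, -0.40). Their adjusted p ran between 0.0068 and 0.031. For Qk against LacZ suppression no gene of these 6 lists was called.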

How the data were processed

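Total RNA of mouse neural stem cells was read on 26 biotin-labelled Affymetrix arrays, per the labels. The authors' deposited values run between 0.223 and 14.6 and were taken as log2 signals. How they were normalized and the array's genome build are not given in the sources used here. Array medians were 5.61 to 5.74 in the pool set and 5.39 to 5.51 in the suppression set, and the sets were fitted apart.

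Of 269751 probe sets, 233753 named 1 symbol, 5106 several and 30892 none. Symbols were updated through unique RefSeq synonyms (20875 current, 2247 updated, 30 unmatched). A gene's value was the mean over probe sets naming it alone (median 8), with no filter on dim signal. In limma 3.58.1 (R 4.3.3, with version 1.17.8 of data.table; lmFit, contrasts.fit, eBayes) each set was fitted with group means over all 23102 genes, and called means a Benjamini-Hochberg adjusted p under 0.05. The pool set was fitted without the pool block and again with it, and the suppression set with the second title number as a block and again without. Correlations between samples were taken once group means were removed, which itself pushes pairs with other numbers below 0. Their medians (-0.23 in the pool set and -0.21 in the suppression set) are therefore no separate comparison. Same-numbered samples were alike: 30 pool pairs correlated at 0.31 to 0.72, and 5 suppression pairs at 0.22 to 0.57. Blocked values therefore stand beside results whose call they change.

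The members, lists and tests were chosen with earlier results of these data known. Members called in either fit were named with their values, others with their difference, and up to 3 called genes of each related list. Fits were tested on simulated data. Alternatives were the block, median or brightest probe set, dim gene filter, quantile normalization, prior settings, single eGFP repeats and leaving out samples. The number of arrays limits precision. Figures used matplotlib 3.10.9.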

Additional observations from a re-analysis of the deposited data

Results flagged for a closer look

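In the 5 Qk-suppressed samples, array 5_2 stood far above the other 4 for 10 of the 33 measured members, with a gap above the 95% critical value of Dixon's test. Its log2 signals were 10.673 for Hmgcs1, 7.505 for Pmvk, 6.751 for Idi1 and 8.802 for Fdps. They were 7.771 for Lss, 9.436 for Nsdhl, 7.539 for Hsd17b7, 10.134 for Insig1, 7.56 for Stard4 and 9.757 for Acly. LacZ-suppressed L_2, the other array with second number 2, was also above the remaining 6 arrays for each of these 10 genes. Chance flags about 1 in 20 groups, and the genes share the same arrays, so the 10 are not separate events. The same test over the 6 eGFP arrays found none among 33 members, but it could hardly have flagged a pool there. The repeat eGFP arrays of a pool lay close together, with median differences of 0.075 to 0.111 over the members. A pool that stood apart would move its repeat arrays together, and the test looks for a single array. The lack of eGFP flags therefore gives no comparison for array 5_2.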

How the results depend on the processing

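No member difference that was called changed sign under any alternative run. With the replicate block (the pool number), members called went to 2 for MYBtr, 1 for MYBQKI5, 2 for MYBQKI6 and 2 for the 3 MYB constructs together against eGFP, and to 7 for the 3 together against QKItr. The shares of all genes called were 5.99%, 2.64%, 4.43%, 7.08% and 10.4% in that order. With the probe set of highest mean, members called were 0 for MYBtr, 0 for MYBQKI6 and 0 for the 3 together against eGFP. Of all 23102 genes, 96, 41 and 198 were called there. Leaving out single pool columns gave 0 to 1 members for MYBtr and 0 to 1 for MYBQKI6, beside 52 to 456 and 23 to 243 of all 23102 genes. Lpin1 lost its MYBtr call without MYBtr 1 or 2 or eGFP 2 or 3, and its MYBQKI6 call without MYBQKI6 1 or 2 or eGFP 1, 2 or 3. With the replicate block and pool 3 left out, 2 members were called for MYBtr, 2 for MYBQKI6, 2 for the 3 together against eGFP and 3 for them against QKItr. Of all 23102 genes, 1086, 788, 1170 and 1779 were called in that order. With pool 1 or pool 2 left out, MYBQKI6 had 0, MYBQKI5 had 0 without any 1 of the 3 pools, and without pool 2 the comparison with QKItr had 4. All genes called there were 182 and 51 for MYBQKI6, 70 to 212 for MYBQKI5 and 566 against QKItr. Lpin1 was called in 22 of 23 alternatives for the 3 MYB constructs against eGFP (adjusted p 0.00021 to 0.05) and in 21 of 21 against QKItr. The block in Qk against LacZ suppression changed no call, and the count was 0 in each setting run. The fits that leave out a pool within the block were added after the data had been seen. Fewer samples enter the fits that leave columns out, and the cause of the other changes was not tested.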
